A study of Homo sapiens with 6 samples.

Results

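Peaks of acetylated lysine 9 on histone 3 (H3AcK9) under romidepsin were compared directly with those under vorinostat in SKOV3WT cells, an established ovarian carcinoma line. These are 2 of the 6 samples of the series, chosen by their treatment label. Both drugs were applied for 24 h at 1 times the IC50, and chromatin was digested and immunoprecipitated with an antibody against H3AcK9. The other samples are 1 H3AcK9 sample of untreated cells, used below as a background, and 3 input samples, which enter no result. Each treated sample was divided by the sequencing company, so each drug has 2 peak lists of 1 sample. The study elsewhere calls them biological replicates, and the sample labels were followed here. The lists show the spread within a sample, not between cultures, and with 1 sample per drug no test between the drugs was possible. All values are for 20 autosomes, since both romidepsin lists hold no peaks on chromosome 13 and romidepsin list 2 holds none on chromosome 21. The reads behind each list are unknown, and depth, batch and drug cannot be told apart.

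Histone deacetylases remove acetyl groups from lysines in histone tails, and their inhibition leaves more of these lysines acetylated. Acetylated lysine 9 is a mark of active promoters and enhancers, and deacetylases are also recruited to silenced repeats, among them human endogenous retroviruses (HERVs). Romidepsin is a bicyclic depsipeptide prodrug that is selective for class I deacetylases, whereas vorinostat is a hydroxamic acid with a broad range of targets among the zinc-dependent enzymes.

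Romidepsin peaks covered more of the genome than vorinostat peaks, but the balance shifted from region to region. The vorinostat lists held 851523 and 852209 peaks covering 293 and 280.0 Mb. The romidepsin lists held 884969 and 884230 peaks covering 321 and 308 Mb. Both romidepsin lists thus lay above both vorinostat lists. The ratio of the means was 1.10 for covered bases, with 1.05 to 1.15 over the 4 pairs of a romidepsin with a vorinostat list, and 1.04 for the number of peaks. Lists of the same sample differed by a ratio of 1.05 for vorinostat and 1.04 for romidepsin in covered bases. Median peak widths were 209 and 205 bp under vorinostat and 219 and 215 bp under romidepsin. The ratio of covered bases fell to 1.01 when peaks scoring below 1 were removed, which left 30.0 to 33.2% of the peaks of a list. The scale of this score is not stated.

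Peaks of the drugs lay largely at different places. A peak of one drug shared at least 1 bp with a peak in a list of the other drug in 44.8 to 49.1% of cases, and lists of the same sample shared 77.1 to 82.0%. Expressed as shared bases over the union, the drugs had 28.9 to 30.3% in common, the vorinostat lists 65.8% and the romidepsin lists 69.4%. Of the 542 Mb covered in any of the 4 lists, 108 Mb were covered in all of them, 95.6 Mb in both vorinostat lists and no romidepsin list, and 122 Mb in both romidepsin lists and no vorinostat list. Bases common to all 4 lists were also covered in untreated cells in 70.6% of cases, against 32.3% of the bases of vorinostat alone and 31.7% of the bases of romidepsin alone. Peaks found in both lists of 1 drug and in none of the other were narrow, with medians of 159 and 157 bp for vorinostat and 167 and 164 bp for romidepsin, whereas peaks found in all 4 lists had medians of 369 to 431 bp. A wider peak is more likely to share at least 1 bp with another, so the definition of sharing itself favours this difference. How much of it remains beyond the definition was not tested.

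The widest peaks were covered largely under both drugs. Of the 12 widest, 3 from each list, the lists of the other drug covered 76.2 to 100% of the bases. These are not 12 separate places. Peaks of all lists lie in the same stretch, chr17:46642198-46710720, among them the widest of both vorinostat lists and of romidepsin list 2. The widest of romidepsin list 2 was nearly the same as a peak of romidepsin list 1 (chr17:46669857-46685027 and chr17:46669856-46685026). Outside this stretch the shares ran from 81.8 to 98.3%. Vorinostat list 1 held a single peak of 43329 bp at chr17:46642198-46685526 (hg19), of which vorinostat list 2 covered 99.5% in 2 peaks. Romidepsin lists 1 and 2 covered 96.9% and 93.6% of the same stretch, in 6 and 9 peaks. A peak of 19255 bp in romidepsin list 1, at chr10:82216809-82236063, was covered to 97.6% and 95.4% in the vorinostat lists. The lowest share was at chr17:46695978-46710720, a peak of 14743 bp in romidepsin list 2, where the vorinostat lists covered 76.2% and 76.8% in 10 and 11 peaks.

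On each of the 20 chromosomes both romidepsin lists lay above both vorinostat lists, but the size of the difference varied. It was largest on chromosome 19, the most gene-dense human chromosome and the site of large clusters of zinc finger genes. There, vorinostat peaks covered 15.7 and 14.6 Mb and romidepsin peaks 20.4 and 19.4 Mb, with 17.2 Mb in untreated cells, a ratio of 1.31 (1.236 to 1.397 over the pairs of lists). Chromosome 17 followed at 1.19, chromosome 16 at 1.18 and chromosome 22 at 1.16. The smallest difference was on chromosome 4, with 11.93 and 11.67 Mb under vorinostat and 12.22 and 11.96 Mb under romidepsin, a ratio of 1.02 (1.00 to 1.05). On chromosome 4 lists of the same sample differed by a ratio of 1.02 as well, close to that between the drugs.

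Chromosomes with a higher ratio were richer in genes, as the plot of the ratio against gene density shows. Chromosome 19 has 25.3 protein-coding genes per Mb and a GC content of 47.9%, chromosome 4 has 3.99 genes per Mb and 38.2% GC. Over the 20 chromosomes, Pearson's r of the ratio was 0.93 with genes per Mb (Spearman's rho 0.72), 0.90 with GC content (rho 0.79) and 0.90 with the percent covered in untreated cells (rho 0.78). Without chromosome 19, r was 0.83, 0.88 and 0.76. These correlations describe 1 sample per drug, the chromosomes of which share a library, and the part of base composition in them was not tested.

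The absolute excess depended on the treatment of the lists, and the order of the chromosomes less so. After division by the total of each list, 8 of the 20 chromosomes had a ratio above 1, with chromosome 19 at 1.19, chromosome 17 at 1.08 and chromosome 4 at 0.93. Without peaks scoring below 1, chromosomes 7, 16, 17, 19 and 22 had a ratio above 1, chromosome 19 at 1.29 (1.17 to 1.43 over the pairs), and chromosome 4 stood at 0.94 (0.91 to 0.96). Chromosome 19 led under both settings.

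Along chromosome 19 the excess was greatest in the short arm. In its first 10 Mb, chr19:1-10000000, vorinostat peaks covered 2.78 and 2.69 Mb and romidepsin peaks 4.17 and 4.15 Mb, with 2.97 Mb in untreated cells, a ratio of 1.52. The next 10 Mb had a ratio of 1.36. In chr19:20000001-30000000, the lists of the drugs overlapped, with 1.02 and 0.907 Mb under vorinostat and 1.14 and 0.988 Mb under romidepsin. The 3 segments from there to the end of the long arm had ratios of 1.22 to 1.26. All 20 bins of 1 Mb in chr19:1-20000000 had both romidepsin lists above both vorinostat lists, the longest such run on any chromosome. The longest runs with vorinostat higher spanned 6 bins, for example chr2:209000001-215000000, where the vorinostat lists covered 263839 and 262285 bases and the romidepsin lists 221383 and 221613.

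Of 2729 bins of 1 Mb, 2125 had at least 20000 covered bases as the mean of the 4 lists. A bin was called where the means of the drugs differed at least 1.5-fold and their lists did not overlap. Romidepsin was higher in 17 bins (0.8% of those counted) and vorinostat in 61 (2.87%). After division by the list totals, which lowers all log2 ratios by 0.14, the counts were 5 and 129. Without the fold limit, the lists of the drugs lay apart in many more bins, with romidepsin higher in 972 (45.7%) and vorinostat higher in 654 (30.8%). Lists of the same sample passed 1.5-fold in 4 bins (0.188%) for vorinostat and 7 bins (0.329%) for romidepsin. Most bins in which the lists of the drugs lay apart therefore differed by less than 1.5-fold.

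Called bins with romidepsin higher lay mostly near chromosome ends and in bins with much untreated cover. The highest ratio, 1.75-fold, was in chr19:1-1000000, with 209812 and 201256 covered bases under vorinostat and 357734 and 360748 under romidepsin, against 222927 in untreated cells. In chr7:1000001-2000000 the vorinostat lists covered 154564 and 150072 bases and the romidepsin lists 260657 and 262614 (1.72-fold). In chr19:3000001-4000000 they covered 279677 and 271288 against 467336 and 462857 (1.69-fold). The remaining named bins, chr16:1000001-2000000 and chr19:1000001-2000000, differed 1.68- and 1.66-fold. In each of these the lists of a drug were close to each other and far from those of the other drug. In all 17 bins both romidepsin lists exceeded the untreated list, which was called with wider and more widely spaced peaks. The bins were called for high romidepsin cover, which favours this, and the share over all counted bins is not given here.

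Called bins with vorinostat higher had mostly little cover. The largest fold was in chr8:112000001-113000000, with 24623 and 32917 covered bases under vorinostat, 10830 and 15882 under romidepsin and 21086 in untreated cells (2.15-fold). In chr3:164000001-165000000 the vorinostat lists covered 23180 and 37511 bases and the romidepsin lists 10072 and 19430 (2.06-fold). In chr11:56000001-57000000 they covered 22728 and 30432 against 10054 and 17232 (1.95-fold). In these 3 bins the lists of a drug differed among themselves by more than in the romidepsin bins. Their romidepsin means of 13356, 14751 and 13643 lay below the minimum, so these 3 were counted only through vorinostat. The other 2 named bins had more covered bases. In chr17:32000001-33000000 the vorinostat lists covered 55504 and 68986 bases and the romidepsin lists 28516 and 35727 (1.94-fold). In chr18:10000001-11000000 the values were 57814 and 54773 against 29745 and 29100 (1.91-fold). A single bin on chromosome 19, chr19:29000001-30000000, had vorinostat higher, with 61848 and 76750 against 32386 and 43427 covered bases (1.83-fold).

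**Figure D1:**
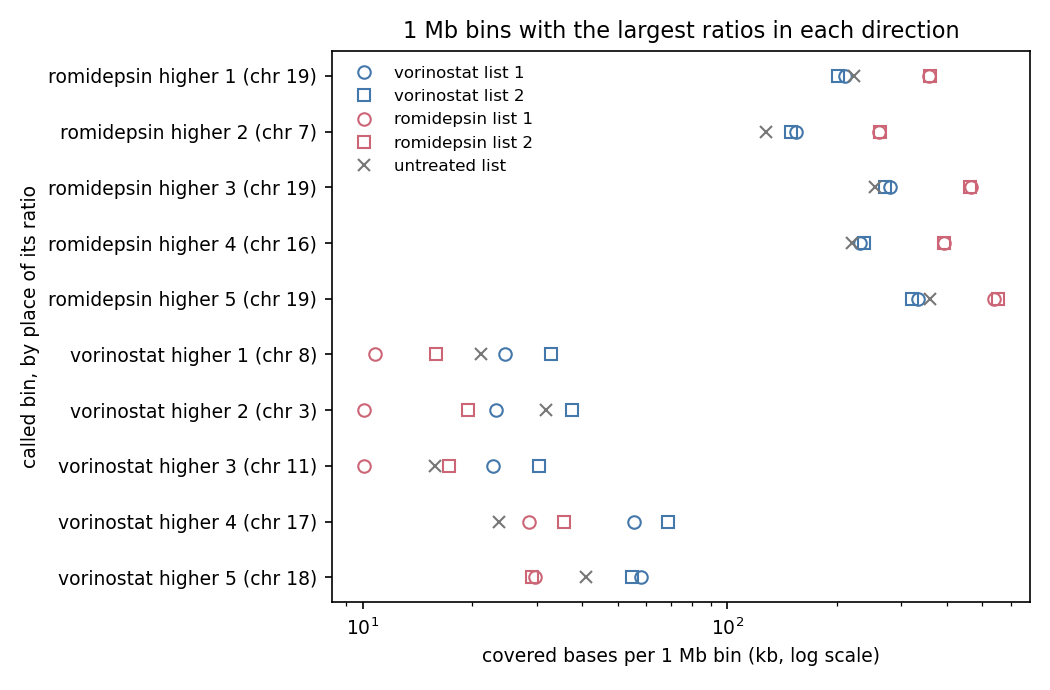
Covered bases of each list (horizontal axis, kb, log scale) in the 5 bins of 1 Mb with the highest and the 5 with the lowest ratio of romidepsin to vorinostat among the called bins (vertical axis). Circles and squares are the first and second list of a drug, crosses the untreated list. The bins with romidepsin higher hold 150072 covered bases or more in every treated list, and those with vorinostat higher 68986 or fewer.

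The ratio rose with the cover that a bin had in untreated cells. All 1 Mb bins with an untreated peak were ordered by untreated covered bases and divided into 10 groups (deciles) of 258 or 259. In the lowest decile, the vorinostat lists covered 2.18 and 2.58 Mb and the romidepsin lists 1.46 and 1.69 Mb, a ratio of 0.663. The ratio then rose at every step, through 0.716, 0.835, 0.924 and 0.983 to 1.03, 1.07, 1.12, 1.15 and 1.22. In the highest decile, the vorinostat lists covered 80.4 and 75.1 Mb and the romidepsin lists 97.2 and 92.1 Mb. Of the 61 bins with vorinostat higher, 48 lay in the 3 lowest deciles, and none lay in the 3 highest. Of the 17 bins with romidepsin higher, 11 lay in the 3 highest deciles and none in the 3 lowest. Counted bins numbered 6, 78 and 234 in the 3 lowest deciles and 259, 258 and 258 in the 3 highest, of 2125. Most bins of the 2 lowest deciles thus could not be called in either direction. Romidepsin cover was thus the lesser where untreated chromatin had few peaks and the greater where it had many.

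**Figure D2:**
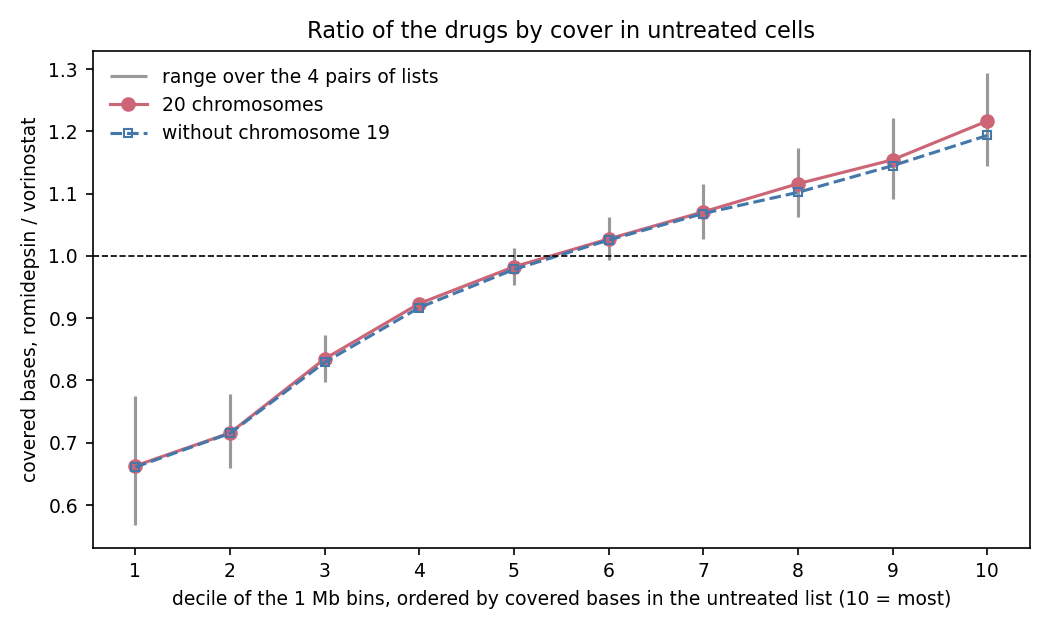
Ratio of covered bases, romidepsin to vorinostat (vertical axis), in deciles of the 1 Mb bins ordered by covered bases in untreated cells (horizontal axis, 10 is the most covered). Circles are the 20 chromosomes, open squares all but chromosome 19, and grey lines the range over the 4 pairs of lists. The ratio rises from 0.663 to 1.22, and from 0.661 to 1.19 without chromosome 19.

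This order held without chromosome 19, where the ratio rose from 0.661 to 1.19. Without peaks scoring below 1 the ratio went from 0.703 in the lowest to 1.12 in the highest decile and rose at 8 of the 9 steps, with a fall from 1.03 to 0.999 at the other. After division by the list totals the lowest and highest deciles stood at 0.602 and 1.11. Over the 2125 counted bins, the log2 ratio had a Pearson's r of 0.70 with the log2 of untreated covered bases, and of 0.58 within the 56 counted bins of chromosome 19 (Spearman's rho 0.71 and 0.41). In bins of 100 kb r was 0.39 and rho 0.39, and the 2 highest deciles had ratios of 1.196 and 1.194. Bins share libraries and neighbours are alike (r of 0.33 between adjacent bins), so r is a description. Lists of the same sample followed the same order to a lesser extent. Vorinostat list 1 over list 2 rose from 0.846 in the lowest to 1.07 in the highest decile, and romidepsin list 1 over list 2 from 0.865 to 1.06. The part of depth or of peak calling in the difference between the drugs was not tested.

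Bins near chromosome ends had the highest ratios. Among 73 counted bins whose middle lay within 2 Mb of an end, the median ratio was 1.35, and 14 of the 17 bins with romidepsin higher were among them. The median was 1.16 from 2 to 5 Mb, 1.05 from 5 to 10 Mb, 1.08 from 10 to 20 Mb, 1.05 from 20 to 40 Mb, 1.03 from 40 to 70 Mb and 0.977 beyond 70 Mb. Without chromosome 19, the median within 2 Mb remained 1.35. Untreated cover was also higher there, with a median of 159066 bases within 2 Mb against 92934 beyond 70 Mb, and its part in the trend was not tested. Short arms of chromosomes 14, 15 and 22 were not counted as ends. The 17 bins lay on 10 chromosomes, among them the first bins of chromosomes 1 and 11 and the last of chromosome 12.

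**Figure D3:**
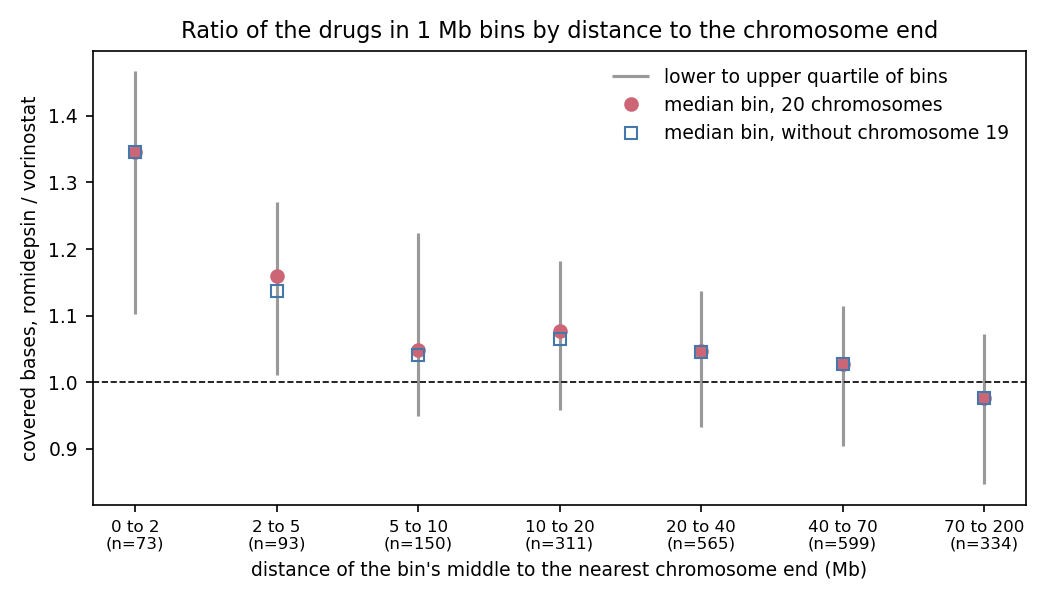
Ratio of covered bases, romidepsin to vorinostat, in counted 1 Mb bins (vertical axis) by the distance of the bin's middle to the nearest chromosome end (horizontal axis, Mb, with the number of bins). Circles are medians over 20 chromosomes, open squares medians without chromosome 19, and grey lines run from the lower to the upper quartile of the bins. The median is 1.35 within 2 Mb and 0.977 beyond 70 Mb, and it rises once between, from 1.05 to 1.08.

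At a scale of 100 kb, 13905 of 27177 bins had at least 5000 covered bases as the mean of the 4 lists. Romidepsin was higher in 976 (7.02%) and vorinostat in 668 (4.8%), and 1168 of these 1644 bins passed 1.5-fold in both pairs of first with first and second with second lists. After division by the list totals the counts were 459 and 1067. Lists of the same sample passed 1.5-fold in 174 of these bins for vorinostat and in 246 for romidepsin. On chromosome 19, romidepsin was higher in 100 of 520 counted bins and vorinostat in 9. On chromosome 4 the counts were 59 and 24 of 727. Both directions occurred on all 20 chromosomes.

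The largest folds at 100 kb were those with vorinostat higher. In chr10:49900001-50000000 the vorinostat lists covered 8053 and 10736 bases and the romidepsin lists 936 and 1743, with 10343 in untreated cells (7.01-fold). In chr2:31200001-31300000 they covered 12490 and 12225 against 1449 and 2378 bases, with 6384 in untreated cells (6.46-fold). In chr1:37400001-37500000 they covered 11476 and 11614 against 1876 and 3598 (4.22-fold). In chr9:96600001-96700000 the vorinostat lists covered 14677 and 14110 bases and the romidepsin lists 3583 and 3602 (4.01-fold). In each of these the lists of the drugs were far apart. The other 6 named bins with vorinostat higher differed 3.41- to 3.90-fold.

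The bins with romidepsin higher reached lower folds. Romidepsin means in the 10 named bins ran from 7392 to 39241 covered bases, and vorinostat means in the 10 with vorinostat higher from 8121 to 14394. Vorinostat means in the 10 bins with romidepsin higher ran from 2598 to 12828.5, so some of these too were counted only through 1 drug. In chr5:167800001-167900000 the romidepsin lists covered 28808 and 28568 bases and the vorinostat lists 9545 and 8871, with 16560 in untreated cells (3.12-fold). In chr16:1200001-1300000 they covered 40072 and 38409 against 12171 and 13486, with 9225 in untreated cells (3.06-fold). In chr11:103100001-103200000 the romidepsin lists themselves differed, at 10786 and 5029 bases, against 2712 and 2484 (3.04-fold). The other 7 named bins, which include chr5:1400001-1500000 and chr16:1-100000 near chromosome ends, differed 2.67- to 2.99-fold.

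The lists are in hg19 coordinates and no hg19 gene annotation was used, so promoters were not tested and genes were named only at HERV loci, for which the study gives positions. HERVs are remnants of ancient retroviral insertions, built of viral genes between long terminal repeats (LTRs) that carry promoter sequence. Of 83 loci, 80 lay on the 20 chromosomes, in 25 HERV groups, with a median length of 6930.5 bp. Genes at a locus come from GENCODE 44 at its hg38 position, given for 72 loci. The study chose these loci for altered peaks in the same samples, so their counts are a description and not independent evidence.

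The loci were called about as often in either direction. Of 78 loci with at least 500 covered bases as the mean of the 4 lists, romidepsin was higher in 10 (12.8%) and vorinostat in 12 (15.4%) by the same rule. The balance depended on the setting, with 3 and 19 after division by the list totals, 15 and 7 by number of peaks, and 18 and 11 with the first romidepsin and second vorinostat list. For comparison, romidepsin was higher in 24.4% and vorinostat in 14.6% of 121364 bins of 10 kb with the same minimum. The median ratio over the 80 loci was 0.991 (log2 -0.01), against a median log2 of 0.16 over these bins, which are longer than most loci. In windows of 100 kb centred on the 80 loci, the median ratio was 1.12 (log2 0.16). Both romidepsin lists were higher in 48 windows and both vorinostat lists in 11. Over the 13905 counted bins of 100 kb the median log2 was 0.14, close to that of the windows. Both romidepsin lists were higher in 51.5% of these bins and both vorinostat lists in 22.1%.

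The HERVH group, the largest here with 32 loci, leaned towards vorinostat. Vorinostat lists covered 84735 and 82375 bases of these loci and romidepsin lists 73967 and 67048, a ratio of 0.844, whereas the 48 loci of other groups had 147257 and 139438 against 169004 and 151115 bases, a ratio of 1.12. The lists of the drugs did not overlap in either sum. Both vorinostat lists lay above both romidepsin lists in 16 HERVH loci, the reverse held in 6, and the lists overlapped in 10. In the other groups vorinostat was higher in 12, romidepsin in 22, and 14 overlapped. Lists apart were not counted over the bins of 10 kb, so these counts compare only loci that the study chose. A ratio above 1 was found in 60.3% of the 121364 bins of 10 kb, in 9 of the 32 HERVH loci and in 27 of the 48 others. Off chromosome 19 the ratios were 0.782 for 25 HERVH loci and 1.02 for 34 other loci. On chromosome 19 they were 0.994 for 7 and 1.31 for 14 loci. The 4 HML2 loci, members of the youngest HERV-K group, all had romidepsin higher, with 1.16- to 1.64-fold. Their surroundings shared this, since both romidepsin lists were higher in all 4 windows of 100 kb, with a median ratio of 1.26. Loci 4768 and 4776 among them lie on chromosome 19.

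**Figure D4:**
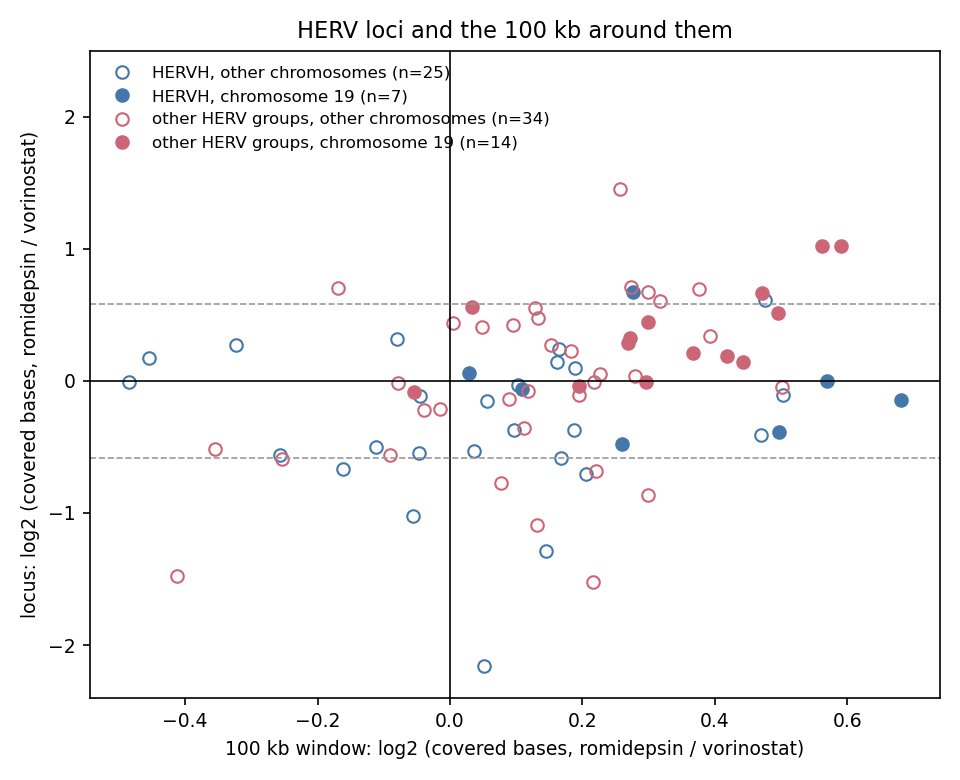
Log2 ratio of covered bases, romidepsin to vorinostat, at 80 HERV loci (vertical axis) against the same ratio in a window of 100 kb around the locus (horizontal axis). Colours separate HERVH from other groups, filled points are on chromosome 19, and dashed lines mark 1.5-fold. Log2 ratios of loci run from -2.16 to 1.45, and of the 32 HERVH loci 23 lie below 0.

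The lowest ratio of all loci was at a HERVH element at chr8:98187250-98192981 (locus 2909), 25368 bp from CPQ, which encodes a carboxypeptidase. Vorinostat lists covered 3717 and 3708 of its 5732 bases, romidepsin lists 879 and 787, and the untreated list 5204. Cover was thus 4.46-fold higher under vorinostat, whereas in the 100 kb around it the lists overlapped, at 22765 and 19720 against 23590 and 20413 bases. At locus 6196, a HERVH element at chr1:222139307-222144960 within an intron of the long non-coding RNA gene LINC02257 and over an exon of LINC02474, the vorinostat lists covered 2962 and 2966 bases and the romidepsin lists 1159 and 1265, with all 5654 bases covered in untreated cells. Its neighbour in an intron of the same gene, locus 6195, is also a HERVH element and lies at chr1:222121123-222131977. It had 3697 and 3430 against 3832 and 4046 bases, with romidepsin slightly higher. Its ratio of 1.11 was close to the ratio of 1.10 over all covered bases. Of these 2 elements of 1 group within 1 gene, only locus 6196 thus departed from the total.

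Other loci with vorinostat higher were a MER57 element at chr12:58051189-58061054 (locus 3806), with 1697 and 1843 against 822 and 409 covered bases (2.88-fold), and a HARLEQUIN element at chr16:34849284-34855710 (locus 4376), with 1297 and 1334 against 345 and 598 (2.79-fold). Locus 3651, a HERVH element at chr11:117681535-117683366 in introns of FXYD2, which encodes a subunit of the sodium pump, and of DSCAML1, which encodes a cell adhesion molecule, had 686 and 719 against 319 and 373 bases (2.03-fold). Locus 513, a HERVH element at chr2:38307942-38313654 in an intron of CYP1B1, a cytochrome P450 of steroid metabolism, and over an exon of CYP1B1-AS1, had 2707 and 2753 against 1872 and 1571 (1.59-fold). The lists of the drugs were apart in all of these, and the untreated list covered more than either drug. It did so in 9 of the 12 called loci with vorinostat higher. This was not particular to them. Summed over all 80 loci, the untreated list covered 329942 bases, the vorinostat lists 231992 and 221813 and the romidepsin lists 242971 and 218163. At all loci the cover of the untreated list is not directly comparable, since it was called with wider and more widely spaced peaks. Its smallest gap was 509 bp, against 205 bp under vorinostat and 201 bp under romidepsin. More untreated cover is therefore no measure of acetylation lost. Both drugs exceeded the untreated list at 2 of the 12 called loci with vorinostat higher. At locus 4215, a HERVIP element at chr14:93088762-93095953 in an intron of RIN3, the vorinostat lists covered 3397 and 3731 bases, the romidepsin lists 2017 and 2156 and the untreated list 1229 (1.71-fold). At locus 6125, an HML5 element at chr1:185547906-185565460, the values were 6064 and 5861, 4310 and 3615, and 2785 (1.505-fold).

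Of the called loci with an hg38 position, 5 of 7 with romidepsin higher overlapped an exon of a protein-coding gene, against 0 of 11 with vorinostat higher and 21 of all 72. The highest ratio, 2.74-fold, was at a sparsely covered HERVW element, chr3:142157021-142162495 (locus 3q23b), with 260 and 299 bases under vorinostat and 649 and 881 under romidepsin. Locus 6062, an HML2 element at chr1:150600635-150608252 over exons of ENSA, an inhibitor of protein phosphatase 2A, had 2624 and 2290 against 3936 and 4121 bases (1.64-fold). Locus 864, an HML2 element at chr3:9883434-9896394 over exons of TTLL3, a tubulin glycylase, and RPUSD3, a mitochondrial pseudouridine synthase, had 5088 and 4247 against 8473 and 6641 (1.62-fold). Locus 4767, at chr19:53131161-53139417 over exons of the zinc finger gene ZNF83, was the called HERVH locus with romidepsin higher, with 2706 and 2503 against 4611 and 3708 bases (1.60-fold). Untreated cover exceeded that of both drugs at locus 6062 and lay between the romidepsin lists at locus 864 and between the drugs at locus 4767.

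The difference at locus 3806 included its first bases. The sequence below is the first 150 bases of this element on its own strand, chr12:57657406-57657555 (plus strand), read from hg38, 5′ to 3′. It is shown because both vorinostat lists and the untreated list covered all 150 bases, and both romidepsin lists covered 0. CG dinucleotides, the sites of DNA methylation, would be in capitals, and it holds none.
Locus 3806, MER57: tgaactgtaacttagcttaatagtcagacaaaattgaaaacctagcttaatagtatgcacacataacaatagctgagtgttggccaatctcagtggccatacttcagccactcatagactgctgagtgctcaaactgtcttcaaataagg

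Across the 72 loci with an hg38 position, the log2 ratio of the locus had a Spearman's rho of -0.06 with GC content and 0.21 with CG per kb. The log2 ratio of the surrounding 100 kb had a rho of 0.44 with CG per kb of the locus. Loci share libraries and some share a region, so these are descriptions.

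ERVV-2, which encodes the envelope protein EnvV2 and is the HERV gene at the centre of the study, lies at chr19:53547993-53554933 as locus ERV-V2. Vorinostat lists covered 2543 and 3231 of its 6941 bases, romidepsin lists 4128 and 4102, and the untreated list 2239. Both romidepsin lists were above both vorinostat lists, by 1.43-fold, under the 1.5-fold limit. Both drugs exceeded the untreated value. Divided into 3 equal segments, the vorinostat lists covered 1341 and 1317 bases of the 5′ segment and the romidepsin lists 1821 and 1876 (1.39-fold). The values were, in the middle segment, 1113 and 1615 against 1462 and 1594, where the lists overlapped, and in the 3′ segment, 89 and 299 against 845 and 632. The untreated list covered 1535, 413 and 291 bases of the 5′, middle and 3′ segments. Both vorinostat lists thus lay below it in the 5′ segment and above it in the middle segment. Both romidepsin lists lay above it in all 3. No fold is given for the 3′ segment, where the vorinostat lists differed widely and the mean of the 4 lists was under 500 bases. The 100 kb around it, which holds ERVV-1 and the zinc finger gene ZNF160, had 34502 and 34991 against 51055 and 46871 bases (1.41-fold), so the locus and its surroundings differed by a similar fold.

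Of the 21 loci on chromosome 19, both romidepsin lists were higher in 16 of the windows and in 10 of the loci. Vorinostat was higher in 2 loci, and the lists overlapped at 9. In the 520 counted bins of 100 kb on this chromosome, both romidepsin lists were higher in 384 and both vorinostat lists in 34. The share of the windows was thus close to that of the chromosome. The 3 HERVH loci described next, chosen after their values were seen, are among those that differed from their windows. In the 100 kb around locus 4744, a HERVH element at chr19:47550656-47558655 over an exon of TMEM160, the vorinostat lists covered 31468 and 29740 bases and the romidepsin lists 48668 and 49478 (1.60-fold), while the locus had 2199 and 2445 against 2291 and 1919. Around locus 4784, a HERVH element at chr19:55518196-55523791 near GP6, which encodes the platelet collagen receptor, the window differed 1.48-fold and the locus had 1761 and 1774 against 1911 and 1616 bases. At locus 4594, a HERVH element at chr19:5548587-5553253, 4925 bp from TINCR, the window had romidepsin higher (1.41-fold) and the locus vorinostat higher, with 1381 and 1486 against 1092 and 1105 bases. This locus lies in chr19:5000001-6000000, a called bin with romidepsin higher at 1.503-fold. The untreated list covered 23 bases of the locus. The study lists it with increased acetylation under romidepsin only, by differential peaks and not by covered bases. Of the 9 loci on chromosome 19 with a ZNF gene within 50 kb, 8 windows had both romidepsin lists above both vorinostat lists. Of the 9 loci there with an hg38 position and without such a gene, 6 windows did. Both are to be read against the 384 of 520 bins of the chromosome, and a difference between the sets was not tested. Of the loci themselves, both romidepsin lists were higher in 5 with and 2 without such a gene.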

How the data were processed

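H3AcK9 ChIP-seq was carried out on 1 sample per condition. The study's notes name SOAPnuke for read filtering, SOAPaligner, SOAP2 or BWA for alignment, and MACS 1.4.2 with a p threshold of 1e-05 for peak calling by the authors. Drosophila spike-in chromatin was added, and its use in the lists is not stated. The deposited lists give each peak's position, in hg19 by their chromosome ends although the labels name hg38, and a score deposited by the authors with no stated scale.

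Covered bases per list were computed for chromosomes, bins, HERV loci and 100 kb windows with Python 3.11.15, NumPy 2.4.6 and pandas 2.3.3, without joining peaks, and checked on simulated intervals. A drug's value is the mean of its 2 lists. Regions were called at 1.5-fold with lists apart, above 20000, 5000 or 500 covered bases (1 Mb, 100 kb, 10 kb and loci). Named bins were the 5 (1 Mb) or 10 (100 kb, at most 1 per Mb) most extreme called bins in each direction. HERV loci were named after their values were seen, and the members and lists were chosen with earlier results of these data known. Gene lists, promoters and cell type markers needed an hg19 annotation and were not analysed here. Some loci and sequences are not reported here.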

Additional observations from a re-analysis of the deposited data

Results flagged for a closer look

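Chromosomes left out of the comparison hold peaks in some treated lists. On chromosome 13, vorinostat lists 1 and 2 held 26734 and 26801 peaks, against 11323 in untreated cells and 0 in both romidepsin lists. On chromosome 21, vorinostat lists 1 and 2 held 11356 and 11374 peaks and romidepsin list 1 held 11806, against 4538 in untreated cells and 0 in romidepsin list 2. On chromosome X, vorinostat lists 1 and 2 held 22379 and 22586 peaks, against 7978 in untreated cells and 0 in both romidepsin lists. The vorinostat counts exceed the untreated ones, while covered bases on chromosome 13 were 7376091 and 7242573 under vorinostat and 8760148 in untreated cells. Since both lists of romidepsin come from 1 sample and only the first has peaks on chromosome 21, a count of 0 there is not a measure of acetylation.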

How the results depend on the processing

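Chromosome 19 kept the highest ratio, and the lowest and highest deciles of bins by untreated cover stayed below and above 1, under every choice of lists, scaling, score, width and joining that was tried. The total ratio of covered bases was 1.15 with the first romidepsin and second vorinostat list, 1.05 with the reverse, 1.01 with scores of at least 1, 1.14 with peaks joined and trimmed to the gaps and widths of the untreated list, and 1.04 by number of peaks. It is 1 by construction after scaling. The ratio of peak numbers was 1.06 for peaks of at least 100 bp, and it reversed to 0.963 with scores of at least 1 and to 0.990 with gaps of up to 300 bp joined. The cause was not tested.

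Called 1 Mb bins numbered 146 and 50 with the crossed pairs of lists, 134 after scaling, 268 with scores of at least 1, 48 by number of peaks, 427 at a log2 limit of 0.32, 2 at 2-fold and 325 without a minimum. The split was 17 with romidepsin and 61 with vorinostat higher, 5 and 129 after scaling, 131 and 137 with scores of at least 1, 0 and 48 by number of peaks, 33 and 26 with widths of at least 200 bp, and 20 and 305 without a minimum. Called 100 kb bins numbered 2530 with the first romidepsin and second vorinostat list, 2532 joined and trimmed as above, 1072 by number of peaks, 5124 at a log2 limit of 0.32, 269 at 2-fold and 7365 without a minimum, where vorinostat was higher in 5833. Called HERV loci numbered 13 with scores of at least 1. They were 10 with romidepsin and 12 with vorinostat higher, and 3 and 19 after scaling. Peaks shared between the drugs fell from 47.0% to 30.0% when at least 50% of the peak had to be covered and to 16.2% with scores of at least 1, where lists of the same sample shared 27.7%. Results without chromosome 19, and all settings for HERV loci and deciles, were chosen after seeing the data. No paired analysis was possible because each drug has 1 sample.

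Depth limits all of these in an unknown way, since the lists hold no reads. Regions of few covered bases rest on few narrow peaks, and there the lists of 1 sample also differ most.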
